A study of Mus musculus with 4 samples.

Results

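The 46 antioxidant and glutathione genes described here make, use and recycle glutathione, or remove superoxide, peroxides and oxidized protein. They were chosen by symbol from a list of their roles, and all 46 listed genes had a row among the 14924 genes of the expression table. All 46 were also tested, since each reached a normalized value of 10 or more in 1 library or more.

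Glutathione is a small thiol peptide that is very abundant in the lens, where it keeps the proteins of the long-lived fiber cells reduced. It is built by glutamate-cysteine ligase and glutathione synthetase, used by peroxidases and S-transferases, and returned to its reduced form by glutathione reductase with NADPH. The thioredoxin and peroxiredoxin system runs beside it. The factor NRF2, held back by KEAP1, activates many of these genes through the antioxidant response element in their promoters, and loss of reduced glutathione is a known feature of cataract.

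Whole lenses of S100A4-/- mice, which carry a null gene for the calcium-binding protein S100A4, were compared with lenses of their wild-type (WT) littermates. The mice were 1 month old, both genotypes were on a C57BL/6 background, and no animal was treated. The paper kept the null line on C57BL/6J, and its WT controls were C57BL/6J mice or littermates. Each group had 2 stranded mRNA libraries, described as biological replicates and each made from 6 to 12 pooled lenses, so that differences between single animals are not visible and p-values measure the spread between these pools alone. The libraries held 81602367 and 74108017 reads on genes in S100A4-/- lenses and 70253985 and 68038158 reads in WT lenses, and the 10 genes with the most reads took between 60.1% and 61.7% of them.

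Values are read counts per gene divided by 1 size factor per library, called normalized values below. A single read added 0.856 and 1.01 to this value in replicates 1 and 2 of S100A4-/-, and 1.04 and 1.09 in those of WT. Differences are given as log2 fold changes of S100A4-/- over WT on the log2(value + 1) scale, with the standard error (SE), the 95% interval and the p-value adjusted over all 14780 genes tested, from limma. A gene passed the test at an adjusted p of at most 0.05. With 2 libraries against 2, an exact permutation test of a single gene cannot go below a two-sided p of 0.333, so all tests come from the fit across genes.

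The targeted gene followed the labels. *S100a4* had normalized values of 14.6 and 18.2 in S100A4-/- lenses and 14420 and 14385 in WT lenses. The groups were far apart, with a log2 fold change of −9.70. Lens markers were abundant in every library. The 10 fiber markers summed to 5286090 and 5447110 in S100A4-/- lenses and to 5804410 and 5694920 in WT lenses, with the crystallin gene *Crygs* the first per kb of exonic length, and none of the 10 fiber or 6 epithelium markers passed the test in either direction.

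Of the 46 genes, 4 were higher and 1 was lower in S100A4-/- lenses. *Sod3* and *Gpx3*, whose products are the secreted superoxide dismutase and the secreted glutathione peroxidase, rose by the largest fold changes. The S-transferase gene *Gstt1* came next and then, with a small fold change, *Prdx6*. *Gstp1*, an abundant S-transferase gene, fell slightly. The 4 genes of glutathione synthesis and reduction, the thioredoxins and their reductases, the other 5 peroxiredoxins, *Cat*, *Sod1*, *Sod2*, *Hmox1*, *Nqo1*, *Nfe2l2* and *Keap1* did not pass the test.

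The 5 genes were 10.9% of the 46, beside 6.96% of all genes tested. The 4 higher genes stood beside 5.62% of all genes called higher (831 genes) and the 1 lower gene beside 1.33% called lower (197 genes). With the libraries scaled to equal totals, the calls over all genes were 783 higher and 55 lower. The counts also depended on single libraries. Without S100A4-/- replicate 1, limma called 2 members higher and 0 lower (3 at an unadjusted p under 0.05), and 218 of all genes higher and 31 lower. Without S100A4-/- replicate 2 it called 2 members higher and 2 lower, and 278 of all genes higher and 61 lower. Without WT replicate 1, 2 members and 111 of all genes were lower, and without WT replicate 2, 95 of all genes were lower. Under the stricter rule of at least a 2-fold change at the same adjusted p, 3 members passed, all higher (*Sod3*, *Gpx3* and *Gstt1*), beside 3.65% of all genes called higher, 0.0744% called lower and 3.72% called either way by that rule. The count tests edgeR and DESeq2, which call 7.04% and 4.47% of all genes, called the same 5 members. The median log2 fold change of the 46 genes was −0.010, and that of all genes tested was −0.005.

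**Figure D1:**
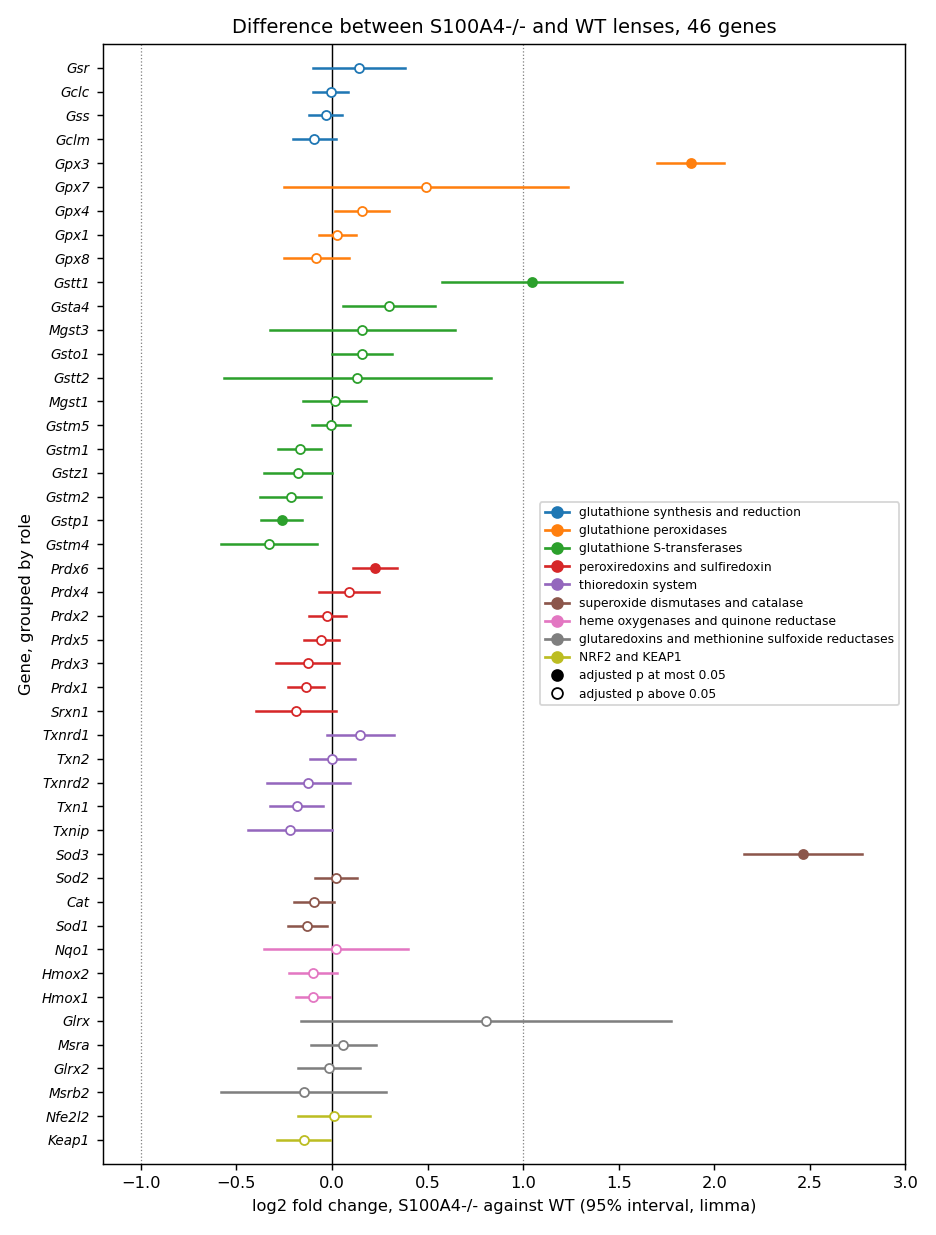
Log2 fold change of S100A4-/- against WT lenses (horizontal axis) for the 46 genes (vertical axis), grouped and coloured by role, with 95% intervals from limma, 2 libraries per group; filled points passed an adjusted p of 0.05 and dotted lines mark a 2-fold change. *Sod3*, *Gpx3* and *Gstt1* lie to the right of the upper dotted line, and 41 of the 46 intervals lie within the dotted lines.

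The levels of these genes in WT lenses spanned a wide range. Levels of different genes are compared here as the normalized value per kb of exonic length, since longer transcripts yield more reads. This length joins the exons of all annotated transcripts of a gene, so it can exceed that of the transcript expressed. The order, the folds between genes and the shares per kb therefore depend on the annotation. *Hmox1*, which encodes the inducible heme oxygenase, stood first in WT lenses at 71681 ± 2684 per kb (SD, n = 2), 11.9-fold above the second gene, the S-transferase gene *Gstm1*, at 5999.6 ± 286. *Hmox1* alone made up 62.2% of the summed level per kb of the 46 genes in WT lenses. Its level per kb was above that of 99.8% of all genes, and it took 0.161% and 0.163% of the reads from S100A4-/- lenses and 0.167% and 0.173% of those from WT lenses.

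Below *Gstm1* came the S-transferase gene *Gstm5* at 4221 ± 114 per kb and the cytosolic peroxidase gene *Gpx1* at 4169 ± 168, whose WT libraries overlapped. They were followed by *Prdx5* at 3873 ± 31.9, *Prdx1* at 2631 ± 0.0891, *Gstp1* at 2583 ± 66.7 and the glutathione synthetase gene *Gss* at 2513 ± 12.8 per kb. Of the 45 pairs of neighbours in the order, 33 had WT libraries that did not overlap and 12 overlapped. The level per kb in WT lenses was above the median of all genes for 40 of the 46 genes and above their 90th percentile for 16. *Glrx*, a cytosolic glutaredoxin gene, was last at 2.43 ± 0.0560 per kb, 29485-fold below *Hmox1*. Among the lowest were also *Gstt2* at 7.85, *Gpx7* at 19.5, *Sod3* at 20.8 and *Gstt1* at 37.1 per kb, so that 2 of the 3 members past 2-fold were among the 5 least abundant members in WT lenses.

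**Figure D2:**
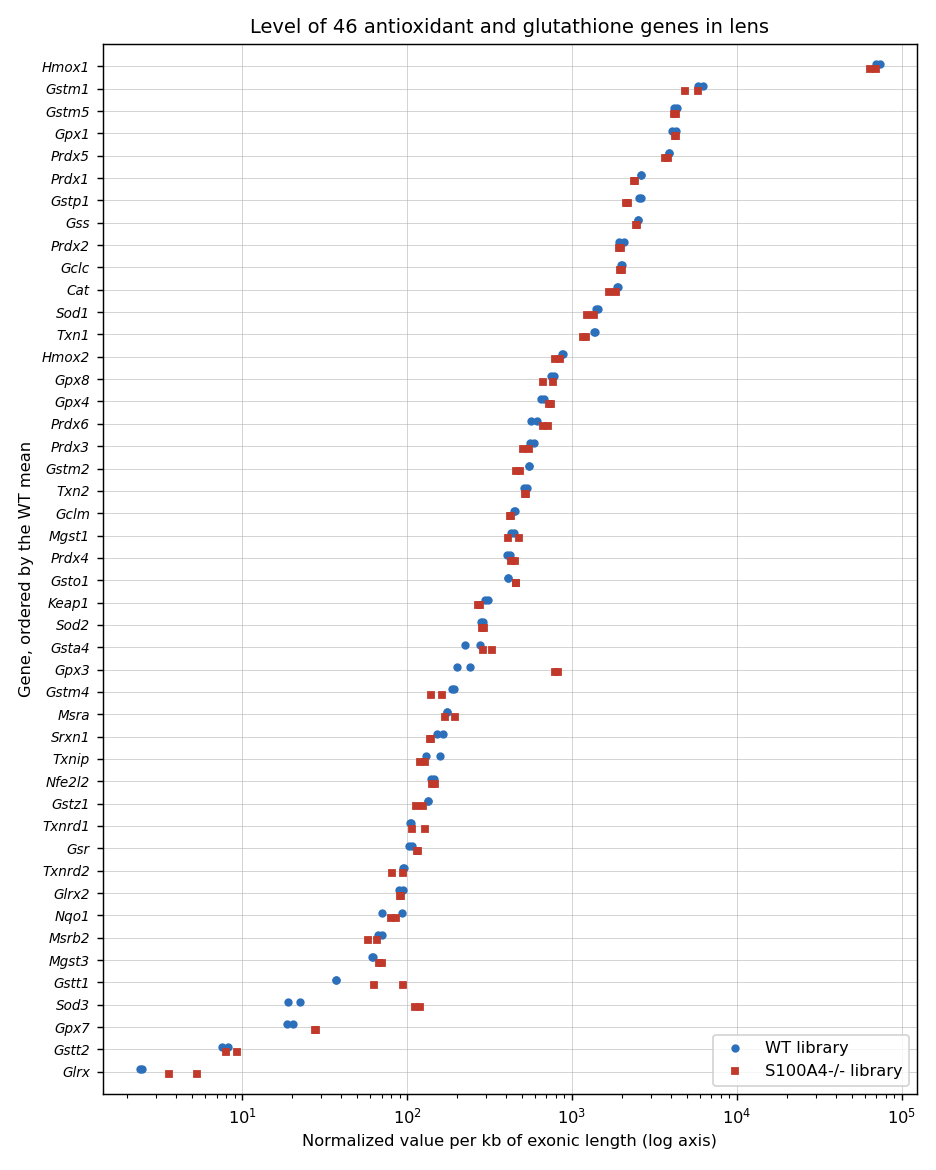
Normalized value per kb of exonic length (log axis) of each of the 46 genes in the 2 WT libraries (circles) and the 2 S100A4-/- libraries (squares), ordered by the WT mean. *Hmox1* stands 11.9-fold above the next gene in WT lenses, and *Sod3* and *Gpx3* show the widest gaps between the genotypes.

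Among the superoxide dismutases and catalase, 1 of 4 genes was higher and none was lower. *Sod3*, the extracellular superoxide dismutase (chr5:52363791-52371418, plus strand, GRCm38), had normalized values of 417 and 446 in S100A4-/- lenses and of 71.0 and 84.3 in WT lenses. Both S100A4-/- libraries were far above both WT libraries. The ratio of the means was 5.56 and the log2 fold change 2.46 (SE 0.15, 95% interval 2.15 to 2.77, adjusted p = 1.45e-15, limma). The highest adjusted p of *Sod3* across the 15 alternative fits (limma, edgeR and DESeq2) was 0.0301. In a bulk sample, fewer cells of a type and less RNA per cell cannot be told apart, and the same holds for an increase. The other members of the group were more abundant and differed little. *Sod1*, the cytosolic dismutase and the first of the 3 dismutases by WT level per kb, had 4923 and 5359 in S100A4-/- lenses and 5536 and 5709 in WT lenses, so that both S100A4-/- values were below both WT values, and its adjusted p was 0.131. The mitochondrial dismutase *Sod2* had 2859 and 2919 against 2824 and 2873, which overlapped. *Cat*, which breaks down hydrogen peroxide in peroxisomes, had 4405 and 4831 in S100A4-/- lenses and 4985 and 4874 in WT lenses, with a 95% interval of the log2 fold change from −0.20 to 0.01.

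Of the 5 genes of the glutathione peroxidase family, named for enzymes that reduce peroxides with glutathione, 1 was higher and none was lower. *Gpx3*, the secreted form (chr11:54902453-54910377, plus strand), had 1429 and 1501 in S100A4-/- lenses and 364 and 435 in WT lenses. The 2 genotypes were well separated, with S100A4-/- above WT. Its ratio of means was 3.67 and its log2 fold change 1.88 (SE 0.09, 95% interval 1.70 to 2.05, adjusted p = 1.75e-19, limma). Its highest adjusted p across the 15 alternative fits (limma, edgeR and DESeq2) was 0.0381. Per kb of exonic length, *Gpx3* stood at 220 in WT and 808 in S100A4-/- lenses, still below *Gpx1*. *Gpx1* itself had 6143 and 6106 in S100A4-/- lenses and 6179 and 5837 in WT lenses, which overlapped. *Gpx4*, which reduces lipid peroxides in membranes and protects against ferroptosis, had 1255 and 1293 against 1170 and 1118, with adjusted p = 0.221 (limma). *Gpx7*, a peroxidase of the endoplasmic reticulum, had 36.0 and 35.5 against 26.1 and 24.1. Both S100A4-/- values were higher, but the 95% interval of its log2 fold change of 0.49 ran from −0.25 to 1.24 and its WT values rested on 25 and 22 reads. *Gpx8*, also of the endoplasmic reticulum, overlapped between groups.

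The 12 glutathione S-transferases, which join glutathione to reactive compounds, moved in both directions, with 1 gene higher, 1 lower and 10 that did not pass the test. *Gstt1*, a theta-class transferase (chr10:75783813-75798584, minus strand), had 96.8 and 144 in S100A4-/- lenses and 56.4 and 56.9 in WT lenses. Both S100A4-/- values were above the WT values, though they were less alike than those of *Sod3* or *Gpx3*. Its log2 fold change was 1.05 (SE 0.23, 95% interval 0.58 to 1.52, adjusted p = 0.00187, limma). Fitted without limma's trend, its adjusted p was 0.212. *Gstt1* fell under 2-fold with a pseudocount of 5 (log2 fold change 0.998), with quantile normalization (0.880) and with 1 library left out (lowest 0.762). The call was lost without S100A4-/- replicate 1 (adjusted p = 0.0581) and without S100A4-/- replicate 2 (adjusted p = 0.276). Its neighbour *Gstt2*, of the same class, had 33.4 and 38.5 against 31.3 and 33.9, which overlapped.

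*Gstp1*, the pi-class transferase (chr19:4035407-4037985, minus strand), had 3289 and 3373 in S100A4-/- lenses and 4071 and 3925 in WT lenses. Every S100A4-/- value was below every WT value. Its log2 fold change was −0.26 (SE 0.05, 95% interval −0.37 to −0.16, adjusted p = 4.84e-04, limma), a ratio of means of 0.833. Fitted without limma's trend, its adjusted p was 0.265. Without S100A4-/- replicate 1 its adjusted p was 0.0652 (limma). Some mu-class genes had fold changes of similar size and sign without passing the test. *Gstm1*, the second member by level per kb, had 7180 and 8594 in S100A4-/- lenses and 8539 and 9136 in WT lenses, which overlapped, and its log2 fold change of −0.17 had an adjusted p of 0.0580 (limma). With 1 library left out, the log2 fold change of *Gstm1* ranged from −0.30 to −0.04. *Gstm4* had 239 and 277 against 320 and 327, and its log2 fold change of −0.33 had an adjusted p of 0.114 (limma). *Gstm2* had 768 and 817 against 915 and 925. *Gstm5*, the mu-class gene with the second highest level, had 5454 and 5288 against 5497 and 5291 and did not separate by genotype. The mu-class genes resemble each other closely in sequence, as do *Gstp1* and its copy *Gstp2*. The authors counted reads that map to a single locus, so the level of each such gene is uncertain. The same holds for members that overlap another annotated gene, such as *Sod1* with *Scaf4* and *Gss* with *Acss2*, since it is not stated whether the counting used strand. None of the 5 genes past the test has such an overlap.

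*Gsta4*, the alpha-class transferase for the lipid peroxidation product 4-hydroxynonenal, had 365 and 415 in S100A4-/- lenses and 350 and 286 in WT lenses. The values did not overlap, and its log2 fold change of 0.30 had an adjusted p of 0.143 (limma). With 1 library left out, the log2 fold change of *Gsta4* ranged from 0.15 to 0.44. *Gsto1*, *Mgst3* and *Gstt1* were the other transferases with both S100A4-/- values above both WT values, and *Gstz1* was the other with both below. The membrane-bound *Mgst1* had 820 and 956 against 862 and 892, which overlapped.

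**Figure D3:**
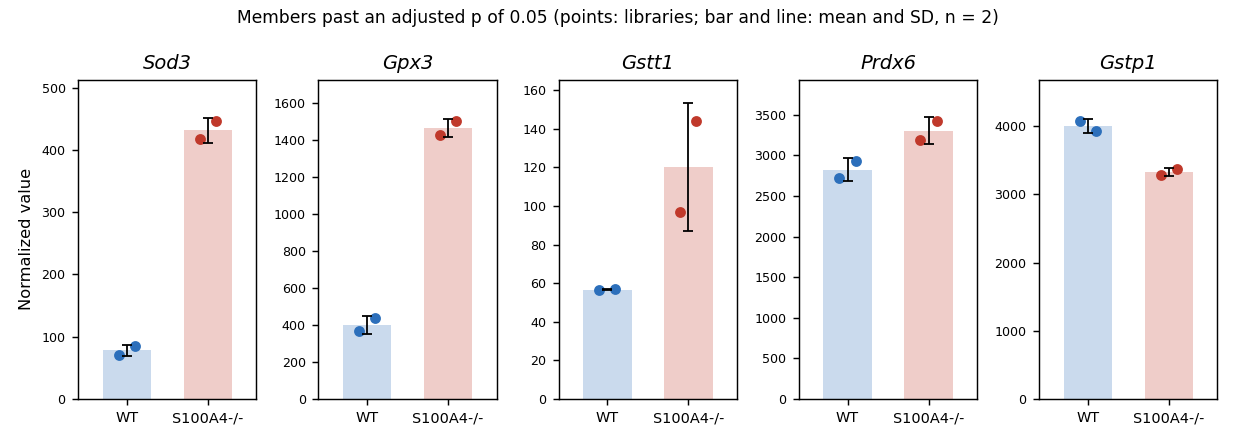
Normalized values of the 5 genes past an adjusted p of 0.05 in the 2 WT and the 2 S100A4-/- libraries (points), with the mean (bar) and SD (line), n = 2 per group; each vertical axis starts at 0. *Sod3* rose from 71.0 and 84.3 to 417 and 446, whereas the ratio of means was 1.17 for *Prdx6* and 0.833 for *Gstp1*.

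Of the 7 genes for peroxiredoxins, thiol enzymes that remove peroxides, and sulfiredoxin, which repairs them, 1 was higher and none was lower. *Prdx6*, the form that uses glutathione and also acts on phospholipids (chr1:161240112-161251219, minus strand), had 3185 and 3421 in S100A4-/- lenses and 2723 and 2928 in WT lenses. The S100A4-/- values were above the WT values by a margin close to the spread within each group. Its log2 fold change was 0.23 (SE 0.06, 95% interval 0.11 to 0.34, adjusted p = 0.00718, limma). Fitted without limma's trend, its adjusted p was 0.410. It did not pass without S100A4-/- replicate 1 (adjusted p = 0.0737), S100A4-/- replicate 2 (0.236) or WT replicate 1 (0.205). *Prdx1*, a cytosolic form, had 7227 and 7348 against 8006 and 8006. Both S100A4-/- values were lower, and its log2 fold change of −0.14 had an adjusted p of 0.0671 (limma). *Prdx5* had 7814 and 8122 in S100A4-/- lenses and 8333 and 8237 in WT lenses, and *Prdx2* had values that overlapped. The mitochondrial *Prdx3* and the repair gene *Srxn1* had both S100A4-/- values below the WT values (811 and 741 against 875 and 819 for *Prdx3*), and *Prdx4* of the endoplasmic reticulum had both above. The intervals of all 7 genes lay within 0.5 of 0 on the log2 scale.

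Within the synthesis and reduction of glutathione, none of the 4 genes passed the test with limma, edgeR or DESeq2, and none had an unadjusted p under 0.05 in limma. *Gclc*, the catalytic subunit of glutamate-cysteine ligase and the first step of synthesis, had 7523 and 7385 in S100A4-/- lenses and 7466 and 7516 in WT lenses. The values overlapped, and the 95% interval of the log2 fold change ran from −0.10 to 0.09. *Gclm*, its modifier subunit, had 2681 and 2640 against 2818 and 2857. Both S100A4-/- values were below the WT values, with an interval from −0.20 to 0.02. *Gss*, which adds glycine to complete the peptide, had 14482 and 14569 against 14813 and 14920, with an interval from −0.12 to 0.05. *Gsr*, which reduces oxidized glutathione, had 317 and 321 against 295 and 284, with an interval from −0.10 to 0.38. All 4 intervals lay within 0.5 of 0 on the log2 scale.

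The thioredoxin system held 5 genes, none past the test with limma, edgeR or DESeq2, and 1 with an unadjusted p under 0.05 in limma. *Txn1*, the cytosolic thioredoxin, had 1283 and 1232 in S100A4-/- lenses and 1439 and 1421 in WT lenses, with an adjusted p of 0.0992 (limma). *Txnip*, which binds and inhibits thioredoxin, had 401 and 372 against 494 and 409. Both genes had S100A4-/- values below the WT values. *Txnrd1* and *Txnrd2* encode the cytosolic and mitochondrial thioredoxin reductases. *Txnrd1* had 907 and 755 against 742 and 751, and *Txnrd2* had 359 and 414 against 416 and 424. The mitochondrial thioredoxin gene *Txn2* overlapped between groups, with an interval from −0.12 to 0.12.

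The heme oxygenases, the quinone reductase, *Nfe2l2* and *Keap1* did not pass the test with limma, edgeR or DESeq2, and *Hmox1* and *Keap1* had an unadjusted p under 0.05 in limma. *Hmox1*, for all its abundance, had 112271 and 122129 in S100A4-/- lenses and 122190 and 128836 in WT lenses. The highest S100A4-/- value was just under the lowest WT value, and the log2 fold change was −0.10 (95% interval −0.19 to −0.01, adjusted p = 0.204, limma). That fold change ranged from −0.16 to −0.04 with 1 library left out and was −0.02 with quantile normalization. *Hmox2*, the constitutive heme oxygenase, had 1750 and 1865 against 1921 and 1948, with an interval from −0.22 to 0.03. *Nqo1*, a quinone reductase often used as a readout of NRF2, had 123 and 133 against 145 and 109, which overlapped. *Nfe2l2*, which encodes NRF2, had 558 and 535 against 552 and 533, with an interval from −0.18 to 0.20. *Keap1*, its inhibitor, had 1265 and 1304 against 1452 and 1396, lower in both S100A4-/- libraries with an adjusted p of 0.224 (limma).

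The promoters of these genes were searched for the core letters of the antioxidant response element, TGACNNNGC on either strand, in windows from 250 bases before to 50 bases after each start (RefSeq, GRCm38). Of the 46 genes, 38 had a window. The letters were found in 9 of 53 member windows (17.0%), beside 12.4% of 32851 windows of all genes. They lay in *Gclm*, *Gstm5*, *Mgst1*, *Msrb2*, *Nfe2l2*, *Prdx1*, *Sod1*, *Srxn1* and *Txnrd1*, none of which passed the test. The windows of *Gpx3*, *Gstt1* and *Gstp1* did not hold these letters, and *Sod3*, *Prdx6* and *Hmox1* were not matched. A match of letters is a description and not a site, and its absence says only that these letters are not in this window. The match in *Prdx1* also contains TGACTCA, the AP-1 motif. These AP-1 letters were counted only inside a match. The *Gstp1* sequence below also holds them outside any match, as the reverse complement TGAGTCA in lower case. The 250 bases before the start are shown for *Gpx3* and *Gstp1*, as members that changed, and for *Gclm* and *Prdx1*, as members that hold a match, which is in capitals and on the opposite strand in both, so that it reads as its reverse complement.
Gpx3 (chr11:54902604-54902853, plus strand): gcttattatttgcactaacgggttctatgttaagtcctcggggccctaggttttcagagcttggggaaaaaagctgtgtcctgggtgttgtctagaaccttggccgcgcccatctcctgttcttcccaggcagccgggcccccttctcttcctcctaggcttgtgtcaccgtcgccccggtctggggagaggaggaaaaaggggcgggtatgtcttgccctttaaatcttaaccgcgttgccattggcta
Gstp1 (chr19:4037913-4038162, minus strand): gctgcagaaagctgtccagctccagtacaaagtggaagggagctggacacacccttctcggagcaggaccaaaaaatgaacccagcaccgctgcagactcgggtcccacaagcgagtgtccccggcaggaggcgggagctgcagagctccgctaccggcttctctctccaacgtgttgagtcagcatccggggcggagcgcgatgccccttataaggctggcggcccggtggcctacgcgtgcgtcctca
Gclm (chr3:122245307-122245556, plus strand): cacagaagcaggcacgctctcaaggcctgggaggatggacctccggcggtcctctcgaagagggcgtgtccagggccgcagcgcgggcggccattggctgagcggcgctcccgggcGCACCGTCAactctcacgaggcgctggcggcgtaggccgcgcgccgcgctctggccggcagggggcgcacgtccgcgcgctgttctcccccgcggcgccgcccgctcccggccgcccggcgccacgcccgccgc
Prdx1 (chr4:116685349-116685598, plus strand): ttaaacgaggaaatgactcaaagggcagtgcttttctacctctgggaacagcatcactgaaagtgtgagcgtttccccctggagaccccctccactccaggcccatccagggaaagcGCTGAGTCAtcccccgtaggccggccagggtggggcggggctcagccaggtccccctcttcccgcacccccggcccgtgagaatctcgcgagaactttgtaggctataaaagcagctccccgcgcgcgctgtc

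The glutaredoxins, which remove glutathione from proteins, and the methionine sulfoxide reductases held 4 genes, none past the test with limma, edgeR or DESeq2 and none with an unadjusted p under 0.05 in limma. *Glrx* had 19.7 and 29.4 in S100A4-/- lenses and 13.6 and 13.1 in WT lenses. Both S100A4-/- values were higher, but the values rested on between 12 and 29 reads, and the 95% interval of the log2 fold change of 0.80 ran from −0.16 to 1.77. *Glrx2* and *Msra* overlapped between groups, and *Msrb2* had 90.8 and 80.1 against 97.1 and 92.0.

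Across the 46 genes, both S100A4-/- values were above both WT values for 13 genes and below them for 19, which together made 69.6%. The background over all genes tested was 23.7% above, 23.2% below and 46.9% together. The members were also read more deeply than most genes, with a median normalized value in WT lenses, not divided by length, of 858 beside 308 for all genes tested. The part of read depth in this share was not tested. At an unadjusted p under 0.05 (limma), 16 of the 46 members differed (7 higher and 9 lower), beside 17.7% of all genes tested (2611 genes). The members were 6 higher and 3 lower with scaling to equal totals, and 5 higher and 3 lower without limma's trend. The share of all genes at an unadjusted p under 0.05 was not counted in these other settings. Of the 46 intervals, 41 lay within 1 of 0 on the log2 scale (a 2-fold change either way), beside 77.1% of all genes, and 36 lay within 0.5, beside 59.8%.

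Other genes that handle glutathione and oxidants were taken from 8 lists of 153 genes, of which 127 were in the table and tested. Of these, 6 were higher and 2 were lower (6.30%, beside 6.96% of all genes), and 4 passed the 2-fold rule. Without S100A4-/- replicate 1, limma called 0 of them higher (12 at an unadjusted p under 0.05) and 1 lower, and without S100A4-/- replicate 2 it called 1 higher and 2 lower. Without WT replicate 2, 1 was lower, and without limma's trend 1 was higher and 0 lower (2 lower at an unadjusted p under 0.05). With all libraries, edgeR called 6 higher and 1 lower and DESeq2 5 higher and 1 lower. NADPH supply, which feeds glutathione reductase and thioredoxin reductase, held both of the lower genes and no higher one among 15. *Nnt*, the mitochondrial transhydrogenase that makes NADPH, had 881 and 893 in S100A4-/- lenses and 1425 and 1477 in WT lenses. The groups were clearly apart, with a log2 fold change of −0.71 (95% interval −0.85 to −0.57, adjusted p = 7.47e-10, limma). Fitted without limma's trend, the adjusted p of *Nnt* was 0.0592, and *Chac1* alone of the 127 genes passed. C57BL/6J mice are known to carry a deletion within *Nnt*. Both genotypes were on a C57BL/6 background, a name that does not tell substrains apart. The part of substrain in the difference of *Nnt* was not tested. *Tkt*, a transketolase gene of the pentose phosphate pathway, had 21202 and 24834 against 25134 and 26252, with a log2 fold change of −0.16 (adjusted p = 0.0338, limma). *Tkt* did not pass with edgeR (adjusted p = 0.0664) or DESeq2 (0.781), nor without S100A4-/- replicate 1 (0.652) or WT replicate 2 (0.296). *G6pdx*, the first enzyme of that pathway, had 1075 and 1359 against 1306 and 1222, which overlapped, with an interval from −0.23 to 0.10.

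Breakdown of glutathione and transport of its precursors held 3 higher genes and no lower one among the 18 of 21 in the table. *Slc7a11*, the cystine-glutamate exchanger that brings in the precursor of cysteine, had 2816 and 2436 in S100A4-/- lenses and 2100 and 2086 in WT lenses. Both S100A4-/- values were higher, with a log2 fold change of 0.32 (adjusted p = 3.19e-04, limma), and the adjusted p was 0.137 without S100A4-/- replicate 1. *Chac1*, which cleaves glutathione inside the cell and is induced by the integrated stress response, had 44.5 and 47.6 against 7.31 and 8.76, with a log2 fold change of 2.39 (adjusted p = 2.63e-04, limma). *Ggt7*, a member of the gamma-glutamyltransferase family, had 33.4 and 39.5 against 5.22 and 12.0, with a log2 fold change of 2.05 (adjusted p = 0.00507, limma). The WT values of *Chac1* and *Ggt7* rested on between 5 and 11 reads. Leaving out S100A4-/- replicate 1 or 2 gave adjusted p-values of 0.0910 and 0.0872 for *Chac1* and of 0.184 and 0.224 for *Ggt7* (limma).

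The remaining higher genes came 1 from each of 3 lists. *Gsta3*, an alpha-class transferase, was 1 of 13 other glutathione enzymes, with 41.1 and 26.4 in S100A4-/- lenses and 3.13 and 4.38 in WT lenses. Its WT values were 3 and 4 reads, so that the log2 fold change of 2.85 (adjusted p = 8.41e-04, limma) depends on the pseudocount. *Sesn2*, a stress-induced sestrin, was 1 of 21 other thioredoxin-fold and repair genes, with 195 and 198 against 101 and 123 and a log2 fold change of 0.81 (adjusted p = 8.77e-04, limma). *Nfe2l3*, a relative of NRF2, was 1 of 24 other NRF2 target and partner genes, with 44.5 and 49.7 against 15.7 and 19.7 and a log2 fold change of 1.37 (adjusted p = 0.0157, limma). Without S100A4-/- replicate 1 or 2, the adjusted p was 0.161 and 0.0600 for *Gsta3*, 0.142 and 0.137 for *Sesn2* and 0.207 and 0.252 for *Nfe2l3* (limma), and *Nfe2l3* had 0.0538 without WT replicate 1 and 0.111 with DESeq2. No gene of these 3 lists was lower.

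**Figure D4:**
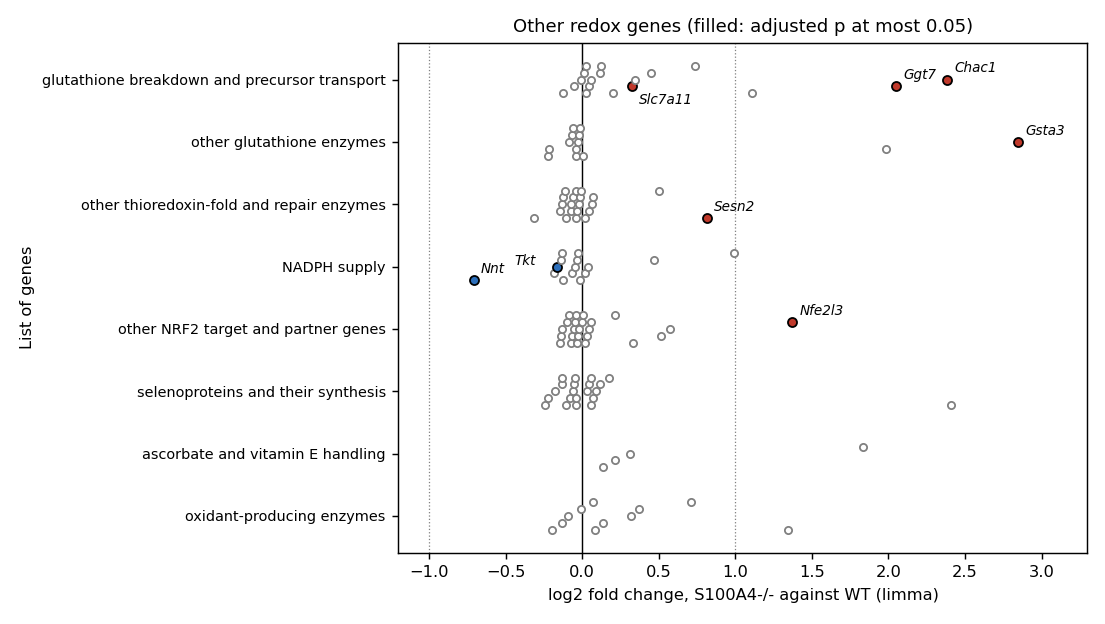
Log2 fold change of S100A4-/- against WT lenses (horizontal axis) for 127 other redox genes in 8 lists (vertical axis); each point is a gene, filled points passed an adjusted p of 0.05 in limma and dotted lines mark a 2-fold change. *Nnt* at −0.71 is the farthest point on the lower side, and of the filled points *Gsta3*, *Chac1*, *Ggt7* and *Nfe2l3* lie past 2-fold on the higher side. Open points that did not pass the test also lie past 2-fold there in 5 lists, the farthest at 2.41 among the selenoproteins.

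Many markers of other cell types of the eye were also higher in S100A4-/- lenses. The paper reports photoreceptor and Müller glia genes as induced within the lens, with raised protein for several of them. All 11 rod photoreceptor markers were higher in S100A4-/- lenses, and they summed to 9751 and 9392 in S100A4-/- lenses and to 2429 and 2464 in WT lenses, with *Gnat1* the first per kb in both genotypes. All 8 pigment cell and ciliary body markers in the table, of 10 listed, were higher, summing to 2291 and 2392 against 371 and 495, a ratio of 5.41. *Best2* had the highest mean level per kb in both genotypes, though *Tyrp1* overlapped it in WT lenses. *Slc45a2* and *Opn5* had no row in the table. The ratio of sums was 2.49 for 7 cone markers (5 higher, *Gnb3* first per kb) and 1.98 for 10 bipolar, amacrine and ganglion cell markers (8 higher, *Cabp5* first per kb in WT and *Slc6a9* in S100A4-/- lenses). For 7 Müller glia markers (4 higher) it was 1.07 with *Dkk3*, the first per kb, and 2.44 without it.

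Markers of blood-borne and vessel cells were below the median level per kb of all genes in WT lenses, except *Hbb-bs*. This red blood cell gene stood at 104 ± 44.7 per kb in WT and 216 ± 15.4 in S100A4-/- lenses (SD, n = 2). The 10 macrophage and microglia markers in the table, of 12 listed, summed to 407 and 348 in S100A4-/- lenses and to 147 and 137 in WT lenses, with 4 higher. By mean level per kb, *Lyz2* was first in WT lenses and *C1qa* in S100A4-/- lenses. In both genotypes their libraries overlapped those of other markers of the list. *Aif1* and *Ptprc* had no row in the table. The ratio of sums was 2.07 for 5 red blood cell markers, of which *Hbb-bs*, the first per kb, was the 1 higher gene. For 8 endothelial markers it was 1.33, and *Cldn5* was first by mean level per kb, though *Tek* overlapped it in WT lenses. The ratio was 1.74 without *Vwf*, a long transcript and the largest term of the sum, which had 72.8 and 70.9 in S100A4-/- lenses and 90.8 and 96.4 in WT lenses. The 1 higher endothelial marker was *Kdr*, with 74.5 and 60.8 against 9.40 and 9.85. No listed marker in the table was at 0 in all libraries. The sums of the lens fiber and lens epithelium markers had ratios of 0.933 and 0.982. The part of the marker signal in the changes of *Sod3*, *Gpx3*, *Gstt1* and the other higher genes was not tested.

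**Figure D5:**
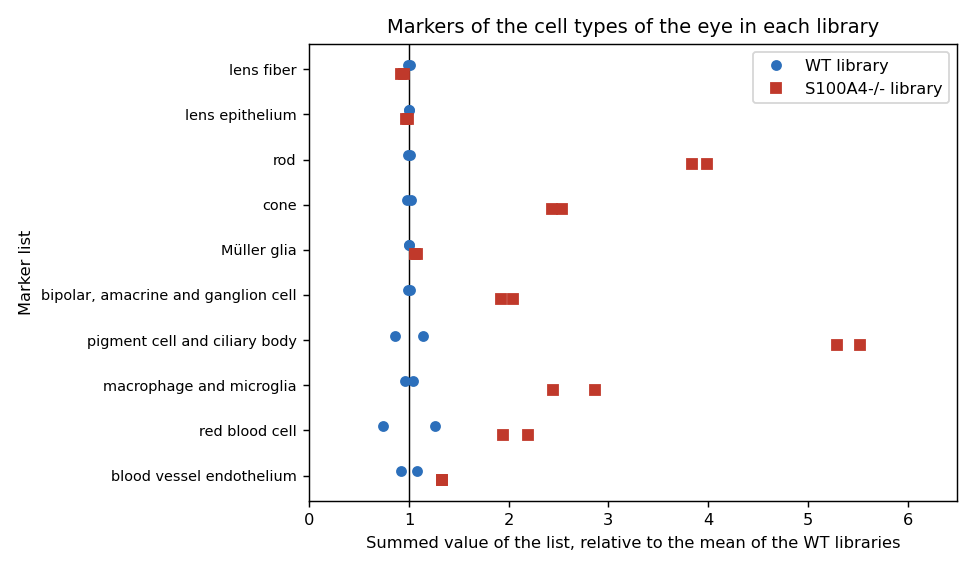
Summed normalized value of each marker list (vertical axis) in each library, divided by the mean of the 2 WT libraries (horizontal axis); circles are WT and squares S100A4-/- libraries. The lens lists lie near 1, and the pigment cell and ciliary body list (ratio 5.41) and the rod list (ratio 3.91) lie farthest to the right in both S100A4-/- libraries.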

How the data were processed

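The authors made stranded mRNA libraries (Kapa), sequenced them as single-end reads in one lane, used Trim Galore for trimming and STAR for mapping to GRCm38 (mm10), let HTSeq count the reads that fell on a single locus, dropped genes that reached 10 reads in no library and normalized with DESeq2; the tool versions are not given in the sources used here. The signal values the authors deposited are gene counts divided by a size factor per library, not divided by length. Divided by the smallest nonzero value of its library, 100% of them came out whole (tolerance 0.01), so reads were recovered; 0 columns of per-sample values were left unused, and a count of 0 allows up to 3 reads, for counting error only.

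The genotypes were compared with limma 3.58.1 (trend of variance) in R 4.3.3 on log2(value + 1) for genes reaching 10 in 1 library or more, with Benjamini-Hochberg adjustment over all genes tested. edgeR 4.0.16 and DESeq2 1.42.0 on the recovered reads, other pseudocounts, filters and scalings, a replicate block and leaving out each library were alternatives. The fit was tested on simulated data. Exonic lengths and positions came from GENCODE M21 (14782 genes matched) and promoters from RefSeq. All 46 genes are reported. Of the other redox lists, the text names those past the threshold whose groups do not overlap, with the smallest adjusted p first, and *Nnt*, *Slc7a11* and *G6pdx* whatever their values; genes in the list of further observations were named after their values were seen. The members and lists were chosen with earlier results of these data known.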

Additional observations from a re-analysis of the deposited data

How the results depend on the processing

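*Sod3* and *Gpx3* passed an adjusted p of 0.05 under all 15 alternatives, *Gstp1* under 13, *Gstt1* under 12 and *Prdx6* under 11. The 2-fold count of members stayed within 1.5 times 3 throughout. Without limma's trend, 2 members were higher and 0 lower, 179 of all genes were higher and 8 lower, and 1 other redox gene was higher and 0 lower. With a pseudocount of 5, 2 members were lower (*Gstm1* and *Gstp1*). With a mean value of at least 50, which tests fewer genes, 549 of all genes and 2 other redox genes were higher and 1 other redox gene was lower. Scaling to equal totals left 55 of all genes lower, 1 other redox gene lower and a median log2 fold change of members of 0.0187. Quantile normalization, edgeR and DESeq2 each left 1 other redox gene lower, and DESeq2 left 90 of all genes lower. Where no construction is given, the cause was not tested.

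The replicate numbers did not pair the libraries (correlation of deviations 0.0119). With a replicate block, 4 members (*Gstm1*, *Gstp1*, *Prdx1* and *Sod1*), 5 other redox genes and 348 of all genes were lower.

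Leaving out 1 library, with a lone library assumed to vary like the other group, gave 2 to 4 members higher and 0 to 2 lower, 2 to 3 past 2-fold, 218 to 803 of all genes higher and 31 to 111 lower, 0 to 7 other redox genes higher and 1 to 2 lower, and a median log2 fold change of members from −0.0457 to −0.0017. The lowest counts came without S100A4-/- replicate 1, where *Sod3* and *Gpx3* alone of the members passed. Of 324 values of 22 genes, 280 kept their side of the threshold, 37 lost it, 7 gained it and 0 changed direction; 13 members changed sign under some setting, none past the threshold.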

Other observations

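Selenoproteins and their synthesis, a list of 21 genes all in the table, held no gene past an adjusted p of 0.05 in limma and 2 at an unadjusted p under 0.05. The smallest adjusted p of the list, 0.102 (limma), was that of *Dio2*, a thyroid hormone deiodinase, with normalized values of 10.3 and 15.2 in S100A4-/- lenses and 2.09 and 1.09 in WT lenses, the last from 2 reads and 1 read. *Selenow*, a small thioredoxin-like selenoprotein, had normalized values of 14704 and 15641 in S100A4-/- lenses and 15714 and 15668 in WT lenses. *Sephs2*, which makes the selenium donor for selenocysteine, had 365 and 364 against 439 and 425, lower in both S100A4-/- libraries, with an adjusted p of 0.195 (limma). *Selenop*, the secreted selenium carrier, had 406 and 414 against 351 and 374, with an adjusted p of 0.415 (limma).

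Ascorbate and vitamin E handling held 4 of 7 listed genes, none past the test in limma and 1 at an unadjusted p under 0.05. *Slc23a2*, the ascorbate transporter, had 386 and 299 in S100A4-/- lenses and 291 and 295 in WT lenses. *Gulo*, the last enzyme of ascorbate synthesis, had 22.3 and 17.2 against 4.18 and 5.47, with an adjusted p of 0.0781 (limma), from 4 and 5 reads in WT.

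Oxidant-producing enzymes held 11 of 20 listed genes, none past the test in limma and 2 at an unadjusted p under 0.05. *Cybb*, the NADPH oxidase subunit of phagocytes, had 30.0 and 24.3 in S100A4-/- lenses and 8.35 and 12.0 in WT lenses, with an adjusted p of 0.107 (limma). *Nox4*, an oxidase that makes hydrogen peroxide, had 72.8 and 74.0 against 105 and 61.3, which overlapped.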
